A study of Mus musculus with 8 samples.

Results

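The Hox cluster genes were examined in mouse embryonic stem cells (mESCs): all genes of the count table that are protein coding and carry a Hoxa, Hoxb, Hoxc or Hoxd symbol with a number. The rule found 39 of 43309 genes, with 11 in the HoxA cluster on chromosome 6, 10 in HoxB on chromosome 11, 9 in HoxC on chromosome 15 and 9 in HoxD on chromosome 2. The counts, sums and values below are those of 38 of them, which are called the Hox genes here. The 8 libraries came from J1 (129SV) cells grown in serum medium on gelatin without feeders, and cDNA was made with the SMARTer Ultra Low kit directly on lysed cells. They form 4 groups of 2: Zbtb24 wild-type (2lox/+) and Zbtb24 knockout (1lox/1lox), called WT and KO here, each from 1000 cells (about 10 ng of RNA and 10 PCR cycles) and from 100 cells (about 1 ng and 18 cycles), so that cell number and PCR cycles changed together and cannot be told apart. The series record calls the replicates clones, the article describes more clones of either genotype than the 2 libraries per group, and the clone behind each library is not stated. P-values therefore measure the spread between these labelled libraries.

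Hox genes encode homeodomain transcription factors that give cells of the embryo their position along the head-to-tail axis. Within a cluster the genes stand in the order in which they are used, with anterior, early genes at the end of paralogue group 1 and posterior, late genes at the end of paralogue group 13, and members of a group in different clusters descend from a common ancestor. In mESCs the clusters are a textbook example of Polycomb silencing, marked by H3K27 trimethylation over CpG-rich promoters, and retinoic acid opens them from the anterior end during differentiation.

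Library totals lay between 9666985 and 16686525 fragment counts. The WT libraries of 100 cells were the least alike replicates, with a chi-square per degree of freedom of 17.60 between their counts. The other groups had 1.99 to 3.28. This spread enters every test that uses the WT libraries of 100 cells, so few calls there do not show a lack of change. All values are for bulk cell samples, in which fewer cells of a type and less RNA per cell cannot be told apart. The Zbtb24 count was 244 and 201 in the WT libraries of 1000 cells, 526 and 545 in KO of 1000 cells, 197 and 269 in WT of 100 cells and 532 and 494 in KO of 100 cells. It was thus higher in every library labelled KO than in every library labelled WT. A gene count covers all exons and does not show a missing segment, so it neither bears out nor contradicts the labels by itself, and each direction below is that of the libraries as labelled KO and WT. All 8 pluripotency markers examined (Pou5f1, Nanog, Sox2, Zfp42, Esrrb, Klf4, Tdgf1 and Dppa5a) reached 10 counts, with summed levels of 5339.3 to 7010.1 CPM (counts-per-million after TMM scaling). The KO libraries of 100 cells stood apart: 8 of 8 myelin and astrocyte markers were called higher there than in WT, with a summed level of 260.7 and 268.7 CPM against 43.5 to 53.6 CPM in the other 6 libraries, and none of these markers was at 0 in all libraries. Of 8 neuron markers 7 were called higher and 1, Stmn2, lower. In that comparison 34.2% of all tested genes were called. Stmn2 made up most of the summed level of the neuron markers, and none of them was at 0 in all libraries. That level was 502.2 and 523.1 CPM in KO of 100 cells and 393.9 to 504.9 CPM elsewhere. Mbp, the main myelin protein gene, counted 1416 and 1360 in KO of 100 cells and 15 to 34 elsewhere, and Snap25, a synaptic vesicle fusion protein gene, counted 1121 and 1021 against 17 to 44. Hox results that include these 2 libraries are given beside those of 1000 cells, which do not contain them.

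The Hox genes were close to silent. Their counts summed to 282 of 107034950 over the 8 libraries (0.000263%), or 1.66 to 3.71 CPM in a library before scaling. Only 4 of 38 (10.5%) reached 10 counts in at least 1 library, against 14307 of 21461 protein-coding genes (66.7%), and 2 of 38 did so in at least 2 libraries. The 4 were Hoxa3, Hoxb13, Hoxc13 and Hoxd13, which held 143 of the 282 counts. Another 4 had a highest count of 4 to 9, 17 had a highest count of 1 to 3, and 13 were at 0 in all libraries, against 3166 of 21461 coding genes (14.8%) at 0. The 13 were Hoxa4, Hoxa6, Hoxa11, Hoxb3, Hoxb6, Hoxc6, Hoxc8, Hoxc11, Hoxd3, Hoxd4, Hoxd9, Hoxd11 and Hoxd12. In a library a count of 0 allows a level of up to 0.18 to 0.31 CPM before scaling (3 counts, which covers counting error only, as PCR reads carry no molecular identifiers). A gene at 0 was therefore not detectable at this depth. Of the genes at 0, Hoxd3 shares 62.8% of its exon bases with other annotated genes, Hoxb3 52.9% and Hoxd4 52.3%, and fragments there were discarded in counting. Hoxb13, Hoxc13 and Hoxd13 share 0%.

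Paralogue group 13, the most posterior, held 132 of 282 counts (46.8%) over its 4 genes, but these were unequal, with highest counts of 11, 15 and 11 for Hoxb13, Hoxc13 and Hoxd13 and of 1 for Hoxa13. Group 9 held 39 counts and group 7 held 30, and Hoxb1 and Hoxd1 at the anterior end held 20 and 4. Groups 6 and 11, in the middle and posterior part of the clusters, held 0 counts over 3 genes each. Groups 2, 3, 4, 5, 8, 10 and 12 held 12 or fewer each.

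Per kb of exon, the mean level over the 4 groups was 0.212 CPM for Hoxb13, 0.202 for Hoxc13, 0.143 for Hoxb7, 0.109 for Hoxb9, 0.104 for Hoxd13 and 0.0748 for Hoxb1, and every other Hox gene was under 0.04. In HoxB, HoxC and HoxD the highest of these means belonged to the gene at the posterior end of the cluster, but not in every group. In KO of 1000 cells Hoxd13 (0.0279) was below Hoxd8 (0.0409), in KO of 100 cells all HoxD genes were at 0, and in WT of 100 cells Hoxb13 (0.187) was below Hoxb7 (0.194). The levels of Hoxb13 and Hoxc13, neighbours in this order, did not differ beyond their spread: per library Hoxb13 ranged from 0.164 to 0.831 CPM and Hoxc13 from 0.164 to 1.12 CPM.

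Most coding genes near the clusters were expressed. Of 16 coding genes within 200 kb of a cluster end, 13 reached 10 counts in at least 1 library and 12 in all 8. Atp5g1, a mitochondrial ATP synthase subunit gene 118.6 kb from HoxB, had 146 CPM per kb, and Mtx2, a mitochondrial import gene 60.7 kb from HoxD, had 31.2. The 3 under 10 counts were Evx1, Evx2 and Gip, with highest counts of 3, 0 and 7. Evx1 and Evx2 are homeobox genes that belong to the HoxA and HoxD regions, and Gip encodes a gut hormone. The contrast with the Hox genes did not hold on every side. Evx1, beside HoxA, had 0.0197 CPM per kb, Evx2, beside HoxD, was at 0, and Skap1, an adaptor protein gene of immune cells and the neighbour of HoxB beyond Hoxb1, had 0.0986, below Hoxb13, Hoxb7 and Hoxb9.

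**Figure D1:**
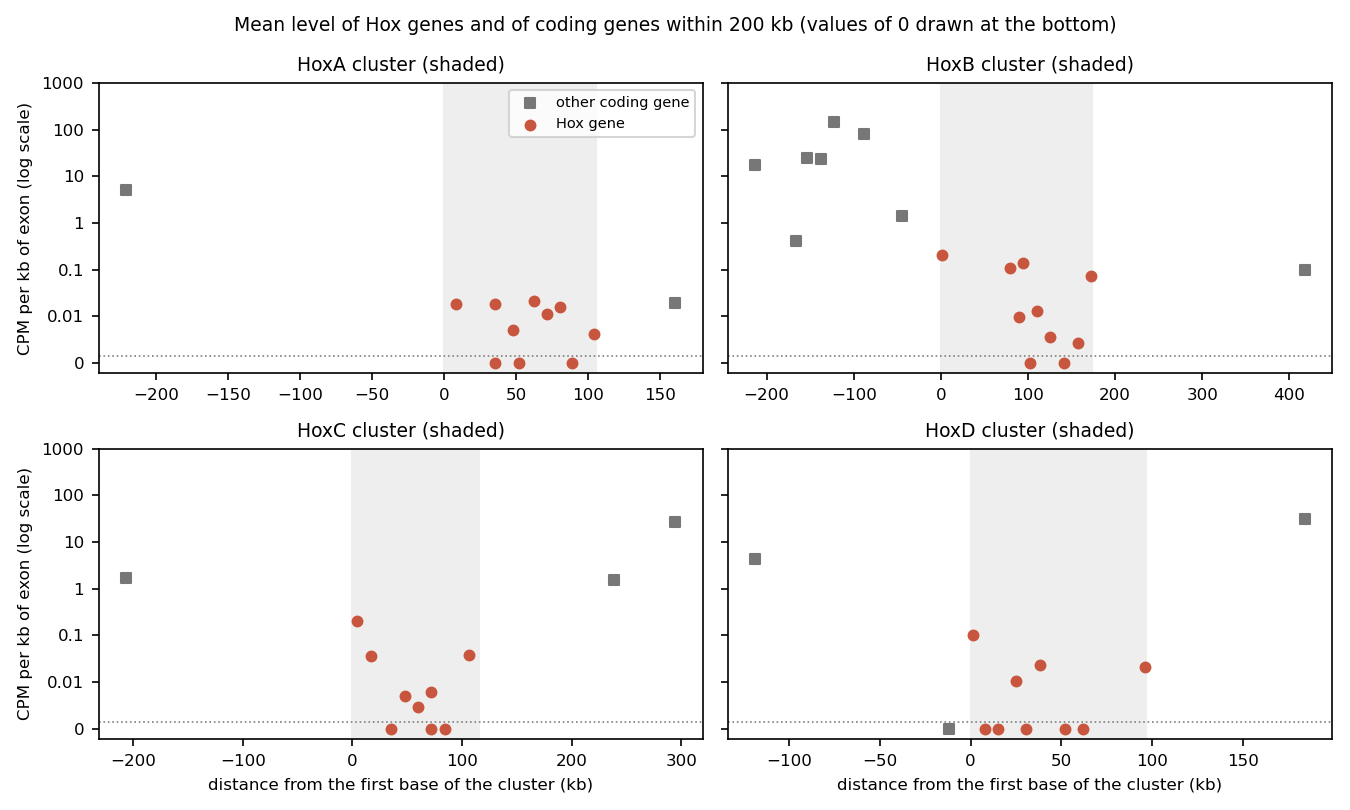
Mean level over the 4 groups in CPM per kb of exon (log scale, values of 0 drawn at the bottom) against the distance of each gene's midpoint from the first base of the cluster in kb, for Hox genes (circles) and other coding genes with an end within 200 kb (squares). Hox genes lie at or under 0.212, and 12 of the 16 other genes had 10 counts or more in every library.

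Promoter sequence was available for 22 of the 38 genes as RefSeq windows (GRCm38.p6), of which the 250 bases before the start were used. They cover Hoxa3 and Hoxd13 but not Hoxb13 or Hoxc13. The number of CG dinucleotides had a median of 12.5 in the 24 Hox windows (2 to 35) and 6 in 32851 windows of all genes, and 19 Hox windows lay above 6. The 3 windows below, with each CG in capitals, are chosen examples within a paralogue group and between clusters. They do not measure how far CG number and counts go together. Hoxd13, a limb and hindgut patterning gene with a highest count of 11, has 31 CG at chr2:74667975-74668224 (+ strand), more than 94.8% of all windows. Hoxa13, its paralogue in HoxA, has 35 CG at chr6:52260881-52261130 (- strand) and a highest count of 1. Hoxd4, a hindbrain gene at 0 counts, has 3 CG at chr2:74721728-74721977 (+ strand).
Hoxd13: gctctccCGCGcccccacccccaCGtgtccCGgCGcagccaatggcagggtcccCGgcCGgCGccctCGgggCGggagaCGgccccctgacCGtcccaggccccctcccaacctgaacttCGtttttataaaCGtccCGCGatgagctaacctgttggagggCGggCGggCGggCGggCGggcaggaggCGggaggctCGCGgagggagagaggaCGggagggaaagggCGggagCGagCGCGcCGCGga
Hoxa13: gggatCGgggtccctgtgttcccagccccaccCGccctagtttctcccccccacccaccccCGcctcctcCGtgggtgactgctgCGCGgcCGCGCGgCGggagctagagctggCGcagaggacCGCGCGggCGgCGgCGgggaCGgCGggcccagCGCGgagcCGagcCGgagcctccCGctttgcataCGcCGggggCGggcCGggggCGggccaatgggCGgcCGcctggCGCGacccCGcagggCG
Hoxd4: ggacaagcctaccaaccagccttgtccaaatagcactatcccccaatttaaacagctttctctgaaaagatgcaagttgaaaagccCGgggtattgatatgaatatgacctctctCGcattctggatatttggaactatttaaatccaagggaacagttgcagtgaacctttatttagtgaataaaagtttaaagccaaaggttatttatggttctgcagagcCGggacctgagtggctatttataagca

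The CG-poor window of Hoxd4 and the CG-rich window of Hoxa13 both belonged to genes at 0 or 1 count. Hoxd4 shares 52.3% of its exon bases with other genes, where fragments were discarded, so its 0 is less certain. Short motifs were searched in the windows on both strands. TATAAA, the core of a TATA box, was in 4 of 24 Hox windows (those of Hoxd13, Hoxd4, Hoxb8 and Hoxa10), against 12.4% of all windows. AGGTCA, the core motif bound by retinoid receptors, was in 6 of 24 Hox windows, namely those of Hoxb4, Hoxc4, Hoxd3, Hoxd4, Hoxd8 and Hoxd10, against 14% of all windows. TTTATG, a motif of CDX factors, was in 5 of 24 against 10.8%, and TGATNNAT, a motif of PBX with HOX, was in 4 of 24 against 7.68%. These are matches of letters and not sites shown to be bound.

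Hoxd13 (ENSMUSG00000001819.4, chr2:74668310-74671599), the gene whose promoter is shown above, counted 6 and 11 in WT of 1000 cells, 0 and 2 in KO of 1000 cells, 3 and 5 in WT of 100 cells and 0 and 0 in KO of 100 cells. All 4 WT libraries were above all 4 KO libraries. At 1000 cells WT had 0.624 ± 0.391 CPM against 0.0692 ± 0.0979 CPM for KO (mean ± SD, n = 2 each). Hoxd13 fell in KO at 1000 cells, with a log2 ratio of -2.88 (SE 1.07, adjusted p = 0.0315, edgeR quasi-likelihood test over 16816 genes). Hoxd13 entered the test only through the 11 counts of 1 WT library of 1000 cells, the group where it is high, so the filter favoured this direction. The call rested on few counts: without replicate 2 of WT the adjusted p was 0.209, and without replicate 1 of KO it was 0.183. At 100 cells the bound on the fall in KO was 3.04-fold, taking 3 counts over the group as the limit that 0 allows and the WT counts as exact. With counting error on both sides, the exact 95% interval of the KO to WT ratio was 0 to 0.514. The adjusted p of the edgeR test was 0.0516.

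Hoxc13 (ENSMUSG00000001655.6, chr15:102921103-102928814), which acts in hair follicles and nails, counted 4 and 2 in WT of 1000 cells, 5 and 7 in KO of 1000 cells, 3 and 4 in WT of 100 cells and 15 and 13 in KO of 100 cells. All 4 KO libraries were above all 4 WT libraries, and the KO libraries of 100 cells were the highest. The log2 ratio of KO to WT was 1.08 (SE 0.87, adjusted p = 0.342) at 1000 cells and 1.74 (SE 0.65, adjusted p = 0.0658) at 100 cells, so neither passed the threshold of 0.05. Only KO of 100 cells gave Hoxc13 the counts to pass the filter, which favoured a rise there. The part of the myelin and neuron markers in the values of KO at 100 cells, for this and the other Hox genes and sums, was not tested.

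Hoxb13 (ENSMUSG00000049604.3, chr11:96194316-96197447), which is known for its role in the tail and the prostate, counted 10 and 2 in WT of 1000 cells, 7 and 4 in KO of 1000 cells, 3 and 7 in WT of 100 cells and 7 and 11 in KO of 100 cells. The groups overlapped at both inputs. The log2 ratio of KO to WT was 0.02 (SE 0.81, adjusted p = 0.988) at 1000 cells and 0.62 (SE 0.71, adjusted p = 0.523) at 100 cells.

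Hoxa3 (ENSMUSG00000079560.9, chr6:52169062-52213336), which patterns the pharyngeal arches and thymus, counted 10 and 2 in KO of 100 cells and 0 in the other 6 libraries. As a bound, the level in KO of 100 cells was 3.51-fold that of WT of 100 cells and 4.1-fold that of KO of 1000 cells. These ratios take 3 counts over the group as the limit of 0 and the 12 counts as exact. With counting error on both sides, the lower limits of the exact 95% intervals were 2.44 and 2.85. The KO to WT comparison at 100 cells had an adjusted p of 0.0626. These are the libraries with high myelin and neuron marker levels, and replicate 1 alone gave 10 of the 12 Hoxa3 counts. Of its exon bases 27.1% were shared with other genes, among them the antisense RNA Hoxaas2, and counting ignored the strand, so that fragments there were discarded or cannot be told apart.

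**Figure D2:**
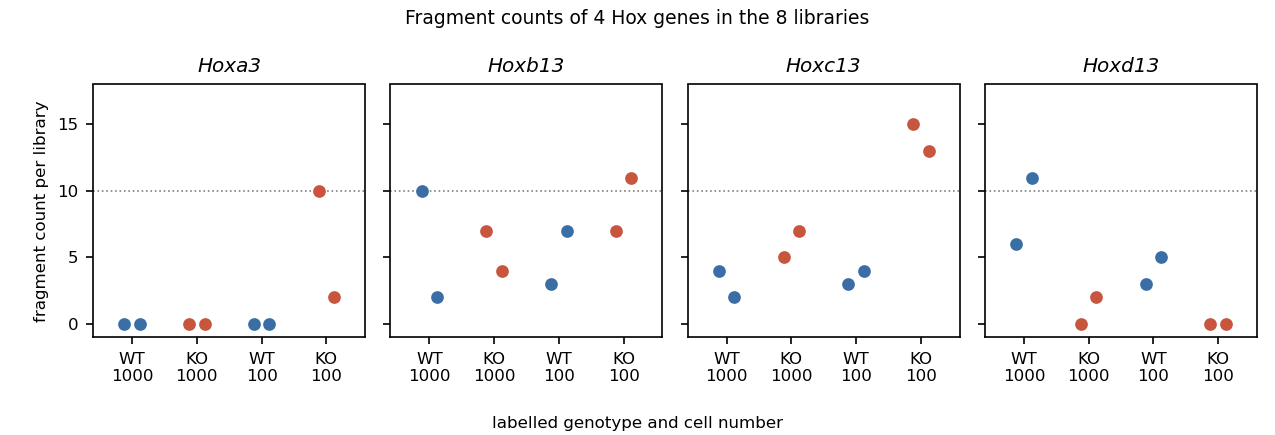
Fragment counts of the 4 tested Hox genes on the y axis in each library (points, 2 per group; WT blue, KO red), with the groups on the x axis and the filter of 10 counts dotted. Hoxc13 reached 13 and 15 in KO of 100 cells, Hoxa3 had counts in those 2 libraries only, and Hoxd13 stayed at 0 to 2 in the 4 KO libraries.

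The comparison of KO with WT asks how loss of Zbtb24, a zinc finger protein mutated in an immunodeficiency syndrome with centromeric instability, goes with expression at each input. At 1000 cells 1 of the 4 tested Hox genes was called, Hoxd13, which was lower, while 41.5% of all tested genes were called, 20.9% higher and 20.6% lower. The groups did not overlap for 2 of the 4, Hoxc13 and Hoxd13, against 69.3% of all tested genes. At 100 cells edgeR called 0 of the 4, with 3 at an unadjusted p under 0.05, limma-voom called 1 and DESeq2 called 0, against 34.2% of all tested genes by edgeR. The groups did not overlap for 3 of the 4 (Hoxa3, Hoxc13 and Hoxd13), where 70.1% of all tested genes did not overlap. Each of these 3 had passed the filter only in the genotype where it is high. The WT libraries of 100 cells, the least alike replicates, are in this test too.

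When both inputs were fitted together with cell number as a covariate, a fit chosen after the data had been seen, 2 of the 4 were called, against 34.1% of all tested genes (18.2% higher, 15.9% lower). Hoxd13 fell (log2 ratio -3.43, SE 0.94, adjusted p = 0.0148) and Hoxc13 rose (1.47, SE 0.50, adjusted p = 0.0378). Each had passed the filter only through the genotype where it is high, Hoxd13 in 1 WT library and Hoxc13 in 2 KO libraries of 100 cells, which favoured these directions. All 4 KO libraries lay above all 4 WT libraries for Hoxc13 and below them for Hoxd13, 2 of 4 genes, where 28.0% of all tested genes did either (14.1% above, 13.9% below).

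The comparison of inputs asks what 100 cells with more PCR cycles give against 1000 cells. In WT edgeR called 0 of the 4 tested Hox genes, and 0 were at an unadjusted p under 0.05. Of all tested genes 0.827% were called. The WT libraries of 100 cells, the least alike replicates, are in this test, so few calls do not show that the inputs gave the same levels. Limma-voom also called 0 of the 4. DESeq2 gave none of the 4 an adjusted p and so could not call them. The groups did not overlap for 1 of the 4, Hoxc13, against 42.9% of all tested genes. In KO 1 of the 4 was called, against 52.1% of all tested genes (27.3% higher, 24.8% lower at 100 cells). Hoxa3 rose from 0 in both libraries (adjusted p = 0.00644), and without replicate 1 of KO at 100 cells the adjusted p was 0.194. That replicate, with 10 counts, was also the only library through which Hoxa3 passed the filter, so the filter favoured this direction. For Hoxc13 the log2 ratio was 1.25 (SE 0.54, adjusted p = 0.054), and limma-voom called it. Hoxc13 reached 10 counts only in KO of 100 cells, so here too the filter favoured the rise. The groups did not overlap for 2 of the 4, Hoxa3 and Hoxc13, against 75.3% of all tested genes. The test of whether the KO to WT ratio differs between inputs called 0 of the 4, against 16.3% of all tested genes. Among the 4, 0 were at an unadjusted p under 0.05, and limma-voom called 0. DESeq2 also called 0 but gave Hoxd13 no adjusted p.

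The 34 Hox genes under the filter carried few counts each. Of the 4 with a highest count of 4 to 9, Hoxb9, a thoracic patterning gene, counted 4 and 1 in WT of 1000 cells, 4 and 7 in KO of 1000 cells, 0 and 1 in WT of 100 cells and 6 and 8 in KO of 100 cells. In CPM its 4 KO libraries (0.311 to 0.605) were above its 4 WT libraries (0 to 0.232). The same order was seen for 14.1% of all tested genes. Hoxc4, the most anterior HoxC gene, was at 0 in all WT libraries and counted 2 and 6 in KO of 1000 cells and 3 and 0 in KO of 100 cells. Hoxb1, a hindbrain gene that responds to retinoic acid, counted 8, 2, 0 and 4 in the WT libraries and 4, 0, 1 and 1 in KO, with the 1000-cell libraries given before those of 100 cells. Hoxb7 counted 2 to 4 in WT and 1 to 5 in KO. In a fit with no filter (28166 genes) none of the 34 was called in any of the 5 comparisons, and the lowest adjusted p was 0.0701, for Hoxc4 in KO against WT at 1000 cells. The 4 genes with a highest count of 4 to 9 were picked out after their values had been seen.

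Summed over the 38 genes, the level was 2.32 and 2.37 CPM in WT of 1000 cells, 2.18 and 2.77 in KO of 1000 cells, 1.58 and 2.57 in WT of 100 cells and 3.81 and 3.33 in KO of 100 cells. WT and KO overlapped at 1000 cells, and at 100 cells both KO libraries were above both WT libraries. The ratio of KO to WT was 1.06 at 1000 cells (68 against 69 counts, exact counting interval 0.75 to 1.51) and 1.67 at 100 cells (95 against 50 counts, 1.17 to 2.4), where the intervals cover counting error only. No p-value is given for sums over the genes. The 34 genes under the filter summed to 1.16, 1.15, 0.692 and 1.36 CPM in WT and to 1.24, 1.87, 1.42 and 1.36 CPM in KO. These ranges overlapped.

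The direction of the mean sums differed between the 4 clusters, on few counts and in part through single genes. At 1000 cells 10 HoxA genes summed to 0.39 ± 0.143 CPM for WT against 0.285 ± 0.184 CPM for KO, and at 100 cells to 0.174 ± 0.0331 against 0.524 ± 0.42 CPM (mean ± SD, n = 2 each, for these and the following sums). The libraries overlapped at 1000 cells, and at 100 cells the difference of 0.35 CPM became -0.10 CPM without Hoxa3. At 1000 cells HoxC summed to 0.227 ± 0.0889 CPM for WT against 0.722 ± 0.252 CPM for KO, and at 100 cells to 0.337 ± 0.057 against 1.39 ± 0.147 CPM. Its KO libraries were above its WT libraries at both inputs, also without Hoxc13, which left differences of 0.26 and 0.30 CPM.

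At 1000 cells HoxD summed to 0.746 ± 0.564 CPM for WT against 0.255 ± 0.031 CPM for KO, and WT of 100 cells had 0.511 ± 0.0238 CPM. In KO of 100 cells all 9 HoxD genes were at 0 in both libraries. The bound on this fall against WT was 4.56-fold, taking the 12 WT counts as exact and 3 counts as what 0 allows over the group. With counting error on both sides, the exact 95% interval of the KO to WT ratio was 0 to 0.316. Without Hoxd13 the differences were 0.06 CPM at 1000 cells and -0.17 CPM at 100 cells. At 1000 cells HoxB summed to 0.981 ± 0.577 CPM for WT against 1.21 ± 0.0469 CPM for KO, and at 100 cells to 1.05 ± 0.648 against 1.65 ± 0.227 CPM, with the libraries of both genotypes overlapping at both inputs.

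**Figure D3:**
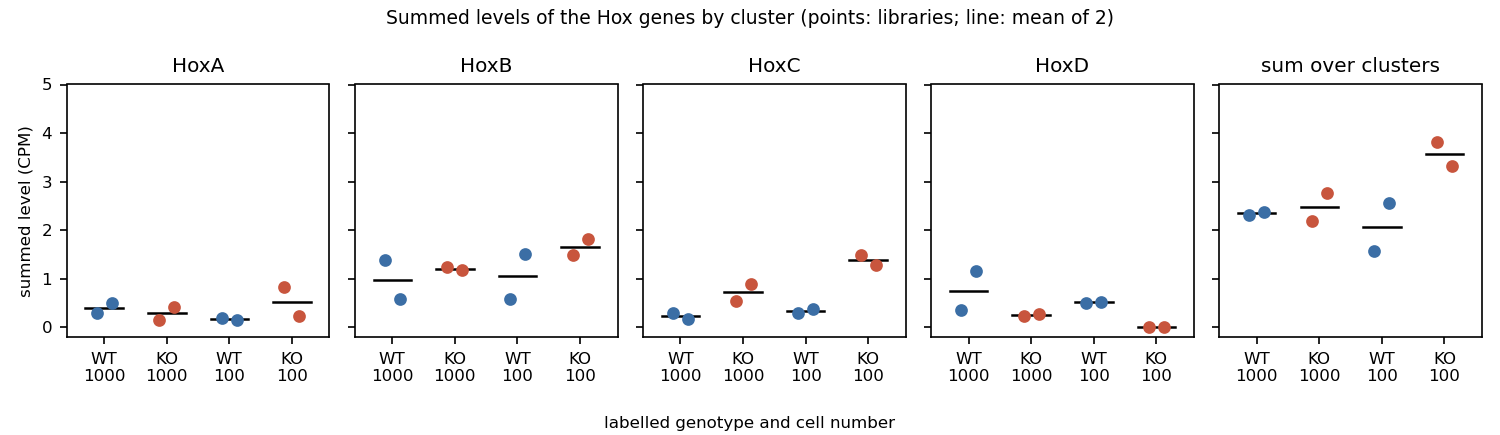
Summed levels of the Hox genes in CPM on the y axis, by cluster and over the 38 genes, in each library (points, 2 per group; WT blue, KO red; line: mean of the 2). HoxC means were higher in KO at both inputs, HoxD means were lower, and the sum over all clusters lay at 3.81 and 3.33 in KO of 100 cells and between 1.58 and 2.77 in the other 6 libraries.

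Of 42 non-coding genes inside the clusters, 29 (69.0%) were at 0 in all libraries, against 13 of 38 Hox genes (34.2%). The 42 include microRNAs and other short RNAs, so these shares compare unlike gene classes. The 2 that reached 10 counts were Gm53 and the processed pseudogene Gm11539, which both lie between Hoxb13 and Hoxb9 and had highest counts of 39 and 24, above the 15 that the 38 Hox genes reached. Gm11539 counted 14 to 24 in every library. Gm53, a lincRNA, counted 30 and 15 in WT of 1000 cells, 30 and 39 in KO of 1000 cells, 5 and 17 in WT of 100 cells and 14 and 15 in KO of 100 cells. It fell from 1000 to 100 cells in KO (log2 ratio -1.20, adjusted p = 0.00315), and in KO against WT at 1000 cells the log2 ratio was 0.74 (adjusted p = 0.0757). Among RNAs antisense to HoxA genes, Hoxaas3 counted 4 and 7 and Gm15050 counted 4 and 3 in KO of 100 cells. In KO of 1000 cells Hoxaas3 counted 0 and 1 and Gm15050 0 and 3, where Hoxa3 was at 0, and both were at 0 in all 4 WT libraries. Hoxaas3 and Gm15050 lie within the span of Hoxa3 or overlap it. Hoxaas2 had 1 count in replicate 1 of KO of 100 cells and 0 in every other library. Hotairm1 and Gm29430, also antisense to HoxA genes, had counts in WT libraries. Hotairm1 counted 1 and 1 in WT of 1000 cells, 0 and 1 in KO of 1000 cells, 1 and 0 in WT of 100 cells and 2 and 3 in KO of 100 cells. Gm29430 had 2 counts in replicate 2 of WT of 100 cells and 0 in every other library. These RNAs antisense to HoxA genes were all under the filter and were picked out after their values had been seen.

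Halr1, a lincRNA 41.9 kb outside HoxA, was far more abundant than the Hox genes and was picked out after its values had been seen. It counted 285 and 258 in WT of 1000 cells, 373 and 455 in KO of 1000 cells, 208 and 233 in WT of 100 cells and 250 and 281 in KO of 100 cells. It rose in KO at 1000 cells (log2 ratio 0.70, SE 0.12, adjusted p = 1.66e-05), and at 100 cells the log2 ratio was 0.02 (SE 0.16, adjusted p = 0.924).

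Of the 13 tested coding genes within 200 kb, 2 rose and 4 fell in KO at 1000 cells, and 1 rose and 5 fell at 100 cells, where 41.5% and 34.2% of all tested genes were called. The median log2 ratio was 0.02 and -0.12, and that of all tested genes was -0.001 at both inputs. Calcoco2, an autophagy receptor gene 82.4 kb from HoxB, fell by 1.71 on the log2 scale at 1000 cells (SE 0.08, adjusted p = 5.83e-17) and by 1.77 at 100 cells (SE 0.12, adjusted p = 2.86e-05). Igf2bp1, an RNA-binding protein gene on the same side, fell at both inputs (-0.38 and -0.31, adjusted p = 1.67e-05 and 0.0441). At 1000 cells Snf8, an endosomal sorting gene, fell (-0.48, adjusted p = 1.63e-05) and Mtx2 rose (0.47, adjusted p = 2.81e-06).

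TALE homeodomain proteins are partners of HOX proteins on DNA. Of 8 genes of this list, all were tested, 2 rose and 1 fell in KO at 1000 cells, and 2 rose and 0 fell at 100 cells, with median log2 ratios of 0.28 and 0.41. With only 8 genes, these counts are not set apart from the 41.5% and 34.2% of all tested genes that were called. Pbx3 rose at 1000 cells (0.63, SE 0.15, adjusted p = 0.00107), and Meis1 fell (-1.05, SE 0.37, adjusted p = 0.0236). Meis2 (2.41) and Pknox2 (1.46) rose at 100 cells, in the libraries with high myelin and neuron markers, and did not pass the test at 1000 cells (adjusted p = 0.192 and 0.442).

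Of 15 genes that induce Hox expression or report retinoic acid and CDX activity, 14 were tested, and 3 rose and 5 fell in KO at 1000 cells and 2 rose and 3 fell at 100 cells, with median log2 ratios of -0.34 and -0.02. Of all tested genes 41.5% and 34.2% were called. Stra8, a retinoic acid target gene of germ cells, rose from 9.78 to 33.8 CPM at 1000 cells (log2 ratio 1.79, SE 0.12, adjusted p = 6.29e-13) and from 9.28 to 32.1 CPM at 100 cells (1.72, adjusted p = 0.000929). Among the receptors, Rara rose (0.44 and 0.53, adjusted p = 0.000255 and 0.0134) and Rarg fell by 0.83 at both inputs (adjusted p = 3.04e-07 and 0.00272). Rxrg fell at 1000 cells by 1.15 (adjusted p = 0.00123).

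Of 20 Polycomb genes, all were tested, 3 rose and 5 fell in KO at 1000 cells and 1 rose and 7 fell at 100 cells, with median log2 ratios of -0.06 and -0.27. The 8 of 20 called at each input lie near the 41.5% and 34.2% of all tested genes. Rnf2, the ubiquitin ligase of Polycomb complex PRC1, rose (0.66 and 0.43, adjusted p = 9.82e-10 and 0.0101). Jarid2, a cofactor of PRC2, fell by 0.40 and by 0.30 (adjusted p = 2.78e-06 and 0.044), and Phc1, a PRC1 subunit, fell by 0.32 and by 0.31 (adjusted p = 5.41e-05 and 0.0416). Phf19, which recruits PRC2, fell at 1000 cells by 1.58 (adjusted p = 4.23e-06). The Evx and ParaHox genes Evx1, Evx2, Gsx1, Gsx2 and Pdx1 were as silent as the Hox genes, with 0 of 5 at 10 counts and a highest count of 5.

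Mesoderm and posterior progenitor markers summed to 6.66 to 10.3 CPM, with 5 of 8 tested, 0 called in KO against WT at 1000 cells and 1 higher (Tbx6) and 2 lower (Hand1 and Fgf8) at 100 cells. For comparison, calls reached 41.5% of all tested genes with the higher input and 34.2% with the lower. Tbx6 passed the filter only in KO of 100 cells, with 16 and 27 counts. Fgf8 passed only through 10 counts in 1 WT library of 100 cells, and Hand1 through 11 in 1 WT library of 1000 cells. Each passed only in the genotype where it is high, which favoured these directions. Primitive endoderm markers summed to 1.89 to 3.86 CPM outside KO of 100 cells and to 6.64 and 7.56 CPM there. Of 4 tested, 0 were called at 1000 cells and 1, Gata6, was higher at 100 cells, and Foxa2 was at 0 in all libraries. Their part in the Hox counts was not tested.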

How the data were processed

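RNA-seq counts were analysed for 8 libraries, grouped by the genotype and cell number of the labels. The authors deposited raw fragment counts per gene: reads mapped to mm10 with TopHat2 2.0.10 were counted over GENCODE M4 genes with HTSeq 0.6.1 in union mode without strand, and fragments of several genes or positions were discarded. Positions and classes came from GENCODE M21 on the same assembly (42425 of 43309 identifiers found). A gene was tested if any library gave it 10 counts or more (16816 genes), by edgeR 4.0.16 quasi-likelihood in R 4.3.3 after TMM scaling. P-values were adjusted after Benjamini-Hochberg over these genes, and 0.05 was the limit for a call. Each comparison used its own 4 libraries, and the interaction used all 8. Scripts were tested on simulated data. Alternatives used DESeq2 1.42.0 and limma 3.58.1. Hox genes with at least 10 counts were named with values, then called genes of the surrounding loci and up to 4 genes per list by smallest adjusted p. The members and lists were chosen with earlier results of these data known. The fits include 1 Hox gene and 1 list gene that are not reported here.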

Additional observations from a re-analysis of the deposited data

How the results depend on the processing

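Counts of 0 to 15 limit every Hox value here. The 1 Hox gene called in KO against WT at 1000 cells (Hoxd13) became 0 in a fit of all 8 libraries, 2 with both inputs in 1 fit, and 0 to 1 when each library was left out. DESeq2 gave none of the 4 an adjusted p there. The 0 called at 100 cells became 3 in the fit of all 8 libraries, 2 with both inputs in 1 fit, 1 with limma-voom (Hoxd13) and 0 to 3 when each library was left out. For KO at 100 against 1000 cells, the 1 called (Hoxa3) became 2 with limma-voom, 0 after thinning to the smallest total, where Hoxa3 was under the filter, and 0 to 1 when each library was left out. The 0 called in WT and for the interaction stayed 0 in each alternative run. DESeq2, however, gave none of the 4 an adjusted p in WT and gave Hoxd13 none for the interaction.

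Same-numbered replicates correlated at 0.154, 0.170, -0.124 and -0.0383 over 8368 genes in the 4 comparisons of groups, with only 2 pairs each, so the numbers were not taken as pairs. With the replicate block, 2 Hox genes (Hoxa3 and Hoxd13) were called in KO against WT at 100 cells and the other counts did not move. The crossed pairing in WT, chosen after the correlation was seen, called 0.

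The 4 Hox genes with 10 counts in 1 library became 2 when 2 libraries were asked for. Without the gene of highest count, KO minus WT became -0.10 CPM (HoxA, 100 cells), 0.26 and 0.30 CPM (HoxC, 1000 and 100 cells), and 0.06 and -0.17 CPM (HoxD). HoxD at 100 cells ranged from -0.53 to -0.49 CPM when each library was left out. At 1000 cells HoxA then ranged from -0.23 to 0.03 CPM, HoxB from -0.18 to 0.64, HoxC from 0.32 to 0.67 and HoxD from -0.89 to -0.09, and at 100 cells HoxA from 0.05 to 0.65, HoxB from 0.14 to 1.06 and HoxC from 0.95 to 1.16. The cluster sums kept their direction under both other scalings.

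Of 213 values of single genes under alternatives, 187 kept direction and side of the threshold, 4 lost the call, 15 gained it and 7 reversed, all 7 uncalled. Hoxb13 in KO against WT at 1000 cells was -0.06 with library size alone and -0.51 to 1.26 when each library was left out. Left-out libraries also gave -0.46 to 1.28 (Hoxb13) for 100 against 1000 cells in WT, and -0.60 to 1.17 (Hoxb13) and -3.17 to 0.79 (Hoxd13) for the interaction.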
